A study of Mus musculus with 8 samples.

Results

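To compare 2 metals directly in hepatocytes of mice with a Cre-driven deletion of the transporter gene Slc39a8, the library of iron-treated LSKO hepatocytes was set against the library of zinc-treated LSKO hepatocytes. These are 2 of the 8 RNA-seq libraries of the series, chosen by their treatment labels, and the comparison covers the 12442 protein-coding genes that passed the filter on low counts, out of 55450 genes annotated. LSKO mice carry the genotype Alb-cre(+/+);Slc39a8(F/F), so that the albumin promoter drives Cre, and with it the loss of Slc39a8 (the ZIP8 gene), in hepatocytes. WT mice carry Slc39a8(F/F) without Cre. All mice were C57BL/6 at post-natal week 8, and all cultures were kept in serum-free DMEM/F-12 with dexamethasone and antibiotics. The iron culture received ferrous chloride (FeCl2) and the zinc culture zinc chloride (ZnCl2), each at 2 µM, for 24 hours by the treatment protocol and overnight by the design text. Untreated WT and untreated LSKO cells gave 2 libraries each, and LSKO cells with manganese or sodium selenite 1 each. Since iron and zinc have 1 library each, they were assumed to vary like the untreated pairs. No source states whether those pairs came from separate animals, so p-values measure only the spread between these libraries, which may be technical.

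Zinc in the hepatocyte is sensed by MTF1, a zinc finger factor that binds metal response elements and switches on the metallothioneins, small cysteine-rich proteins that hold zinc. ZIP proteins bring zinc and other divalent metals into the cytosol, and ZnT proteins take zinc out of it. Iron enters on transferrin through the transferrin receptor, is stored in ferritin and leaves through ferroportin. When cells are rich in iron, the iron regulatory proteins release the transferrin receptor message and it is degraded. The hepatocyte also makes hepcidin (Hamp), the hormone that closes ferroportin throughout the body, under control of BMP receptors and SMAD proteins and of inflammatory cytokines.

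The promoters of 4 genes described here are shown because their messages differed between the metals and their control elements are well known. Each window runs from 250 bases before to 30 bases after the RefSeq start on GRCm38.p6, on the strand of the gene. Capitals in Mt1 and Mt2 mark the metal response element core, TGCACNC or TGCGCNC on either strand. A match occurred in 24.1% of 32851 promoter windows of the same length and in 37.4% of the 9819 tested protein-coding genes that had a window. Mt1 lies at chr8:94178839-94179118 on the plus strand and holds 3 matches, and Mt2 lies at chr8:94172368-94172647 on the plus strand and holds 4. Capitals in Hamp, at chr7:30944000-30944279 on the minus strand, mark the BMP response element core GGCGCC, found in 10.9% of all windows. This core occurred in 21.8% of the tested protein-coding genes that had a window. Capitals in Isg15, at chr4:156200789-156201068 on the minus strand, mark 3 overlapping matches of the interferon-stimulated response element core (TTTC, any 2 bases, TTTC) on either strand, found in 3.28% of all windows.
Mt1: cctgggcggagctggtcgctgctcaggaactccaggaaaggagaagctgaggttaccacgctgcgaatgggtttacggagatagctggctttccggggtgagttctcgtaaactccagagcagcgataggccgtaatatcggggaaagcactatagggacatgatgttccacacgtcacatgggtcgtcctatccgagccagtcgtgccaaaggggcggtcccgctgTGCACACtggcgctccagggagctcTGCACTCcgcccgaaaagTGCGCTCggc
Mt2: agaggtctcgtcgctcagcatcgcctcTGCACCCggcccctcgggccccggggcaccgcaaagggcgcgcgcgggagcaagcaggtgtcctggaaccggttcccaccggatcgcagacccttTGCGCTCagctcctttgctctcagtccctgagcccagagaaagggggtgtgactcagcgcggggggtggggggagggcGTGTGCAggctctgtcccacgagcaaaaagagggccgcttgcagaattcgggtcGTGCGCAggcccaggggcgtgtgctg
Hamp: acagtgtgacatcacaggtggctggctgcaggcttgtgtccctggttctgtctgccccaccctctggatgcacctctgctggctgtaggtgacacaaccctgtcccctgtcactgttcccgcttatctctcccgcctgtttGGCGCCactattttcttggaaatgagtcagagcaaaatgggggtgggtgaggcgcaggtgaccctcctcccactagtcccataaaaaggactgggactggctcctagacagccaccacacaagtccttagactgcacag
Isg15: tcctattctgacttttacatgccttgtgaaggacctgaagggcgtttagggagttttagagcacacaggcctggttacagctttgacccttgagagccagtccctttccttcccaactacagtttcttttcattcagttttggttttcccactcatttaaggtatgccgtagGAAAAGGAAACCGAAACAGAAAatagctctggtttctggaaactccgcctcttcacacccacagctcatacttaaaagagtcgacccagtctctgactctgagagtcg

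The iron and zinc libraries held 19943899 and 25339824 reads in genes. Their read summaries were alike, with 44.79% and 44.69% of reads in no gene and 4.94% and 4.85% not aligned. The manganese library stood apart with 4.48% of reads in no gene. The untreated LSKO and manganese libraries had 8.79% to 10.0% of reads not aligned, and the others 4.12% to 4.94%. Reads counted as of low quality were 0 to 0.0002% and 1.025% to 1.256% in the same order. Comparisons of iron or zinc with untreated LSKO thus cross this divide, and the comparison of iron with zinc does not. Slc39a8 (chromosome 3, 135825279 to 135888572) had 47 reads with iron and 45 with zinc, or 2.34 and 1.83 normalised CPM (reads scaled to library size). Against this, WT had 12.7 and 15.5 CPM and untreated LSKO 8.15 and 1.88 CPM, so that untreated LSKO replicate 1 kept a level between the other LSKO libraries and WT. Slc39a8 did not pass the test between iron and zinc, with a log2 fold change of 0.35 ± 0.84 (SE, edgeR adjusted p = 0.824).

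Across the protein-coding genes, the iron and zinc libraries lay further apart than either untreated pair. Over 9949 well-counted genes the SD of the log2 ratio of iron to zinc was 0.402, against 0.184 between the WT libraries and 0.202 between the untreated LSKO libraries. Of these genes, 233 differed by more than 2-fold between iron and zinc, 180 of them lower with iron, against 7 in the WT pair and 15 in the LSKO pair. A gene was called when edgeR's quasi-likelihood F-test gave an adjusted p under 0.05 and its log2 fold change lay beyond ±0.5. By this rule 460 genes were higher with iron (3.7% of those tested) and 679 lower (5.46%), or 9.15% in either direction. Beyond a log2 fold change of 1 the counts were 72 and 265, so that the larger differences were mostly lower with iron. The median over all genes was 0.016. The counts depend on the WT pair. Leaving out either WT library left the untreated LSKO pair as the only source of spread. It was thus no check separate from using that pair alone. With the spread taken from the untreated LSKO pair alone, 52 genes were higher and 161 lower, without WT replicate 1 they numbered 49 and 164, and without WT replicate 2 they numbered 52 and 166. Against untreated LSKO, iron gave 350 genes higher (2.81%) and 537 lower (4.32%), 7.13% in all, and zinc 192 higher (1.54%) and 100 lower (0.804%), 2.35% in all. These 2 comparisons share the untreated LSKO libraries, and their values are given only beside those of iron against zinc. Below, counts in which the LSKO pair alone supplied the spread are named as the LSKO-pair setting. Counts of called list members below compare with 3.7% of all genes called higher and 5.46% called lower between iron and zinc.

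**Figure D1:**
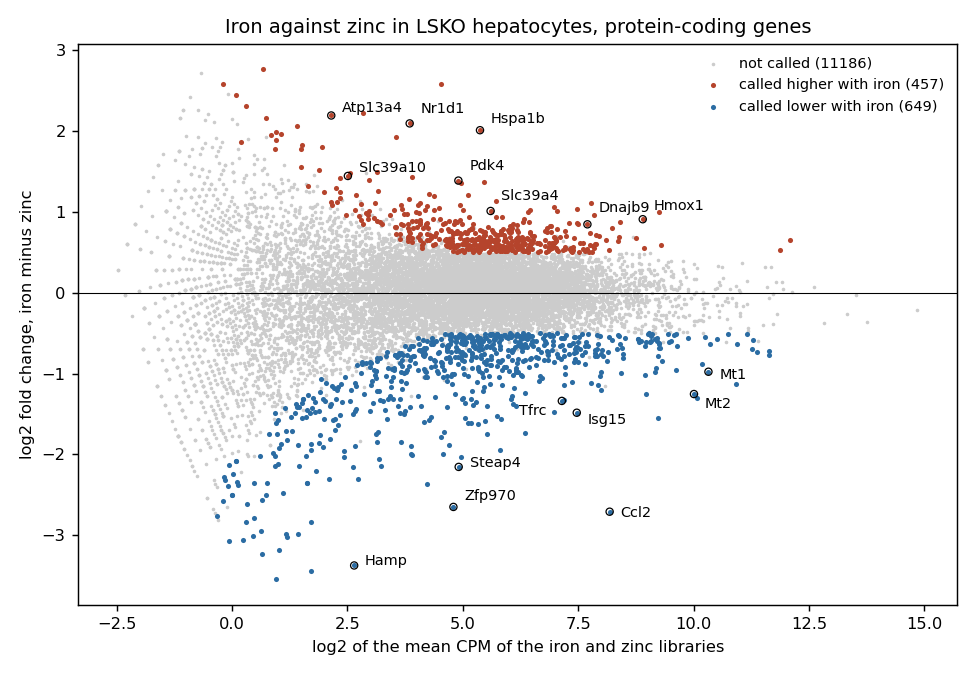
Each point is 1 protein-coding gene, placed by the log2 of its mean CPM in the iron and zinc libraries (x axis) and its fitted log2 fold change, iron minus zinc (y axis). It draws 12292 genes and leaves out 150 with 3 or fewer reads in either library; red points were called higher with iron and blue points lower, and beyond a log2 fold change of 1 in size most called points are blue.

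Short transcripts were lower with iron. In the shortest decile of well-counted genes (234 to 1456 bases), the median log2 fold change was -0.27, and 19.9% were called lower and 1.70% higher. In the longest decile the median was 0.08. Genes low in GC content also lay lower with iron, from a median of -0.10 in the lowest decile to 0.19 in the highest. Transcript length and GC content together accounted for 14.7% of the variance of the log2 ratio over 9974 genes. After a correction for both, the shortest decile had a median of -0.09 with 8.62% called lower, and the totals were 293 genes higher and 560 lower. The origin of the trend was not tested. Values below are uncorrected, and the corrected count is given for the groups whose calls it lowered most.

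**Figure D2:**
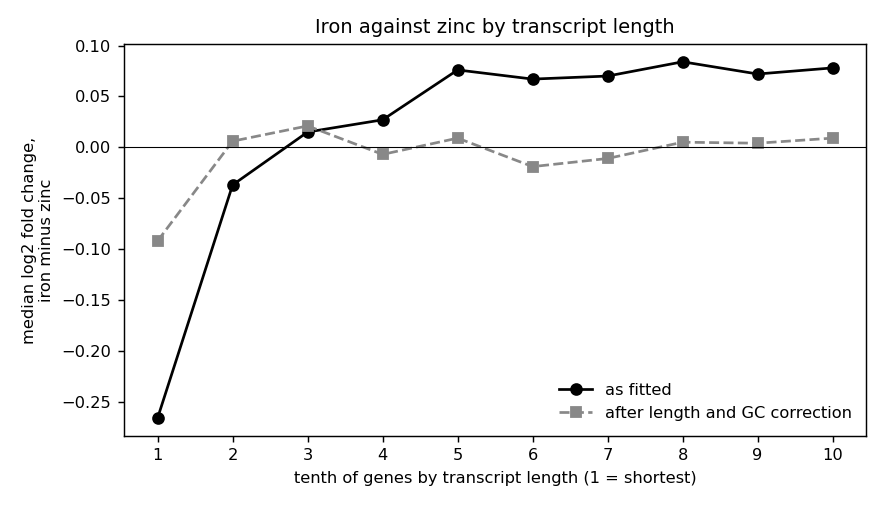
The x axis ranks well-counted protein-coding genes in deciles from the shortest transcripts (1) to the longest (10), and the y axis gives the median log2 fold change, iron minus zinc. The black line starts at -0.27 in the shortest decile and stays between -0.04 and 0.08 elsewhere; the grey dashed line, after the length and GC correction, starts at -0.09.

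For the genes of zinc handling called here, it was mostly the zinc library that stood apart from the rest. The metallothioneins Mt1 and Mt2, which store zinc, were lower with iron than with zinc, and 3 of 11 tested ZIP importers were higher with iron. Mt1 (chromosome 8, 94179082 to 94180327) had 561 and 565 CPM in WT, 741 and 788 CPM in untreated LSKO, 861 CPM with iron and 1695 CPM with zinc. The zinc library was the highest of all 8, selenite came next with 1317 CPM, and iron lay just above the untreated LSKO pair. The log2 fold change of Mt1 between iron and zinc was -0.98 ± 0.11 (SE, edgeR adjusted p = 0.00109). Mt2 had 510 and 472 CPM in WT, 590 and 617 CPM in untreated LSKO, 608 CPM with iron and 1449 CPM with zinc, a log2 fold change between the metals of -1.25 ± 0.11 (edgeR adjusted p = 0.000417). Of its exons, 432 bases overlap a gene on the other strand, and in the manganese library it had 35.8 CPM. That library stood apart with 4.48% of reads in no gene, so this value may not compare with the others. The cause of the low value was not tested. Against untreated LSKO, Mt1 and Mt2 changed by log2 0.17 and 0.01 with iron and by 1.15 and 1.26 with zinc. Both kept their calls in the LSKO-pair setting. Mtf1, the sensor itself, had 42.0 CPM with iron and 34.2 CPM with zinc, with no call.

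Slc39a4 encodes ZIP4, the main importer of dietary zinc in the gut. It had 74.9 and 67.0 CPM in WT, 69.7 and 71.0 CPM in untreated LSKO, 64.8 CPM with iron and 32.2 CPM with zinc. The 7 libraries without added zinc lay close together and the zinc library lay below them. The log2 fold change between iron and zinc was 1.01 ± 0.12 (SE, edgeR adjusted p = 0.00211), and this call also held in the LSKO-pair setting. Slc39a10, the gene of ZIP10, a plasma membrane zinc importer, was also lowest with zinc, with 8.85 and 7.69 CPM in untreated LSKO, 8.32 CPM with iron and 3.06 CPM with zinc. Its log2 fold change was 1.44 ± 0.25 (edgeR adjusted p = 0.00815), and in the LSKO-pair setting the adjusted p was 0.053. Slc39a11, the other importer called higher with iron, had 41.5 CPM with iron against 26.4 CPM with zinc, where the untreated LSKO pair had 27.5 and 27.2 CPM and the log2 differences from it were 0.60 for iron and -0.05 for zinc. None of the 7 tested ZnT exporters was called by edgeR, and 1 had an unadjusted p under 0.05 and was lower with iron. This was Slc30a1, the gene of the plasma membrane exporter ZnT1, with 71.6 and 71.6 CPM in untreated LSKO, 88.6 CPM with iron and 117 CPM with zinc (log2 fold change -0.41 ± 0.12, edgeR adjusted p = 0.0615).

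**Figure D3:**
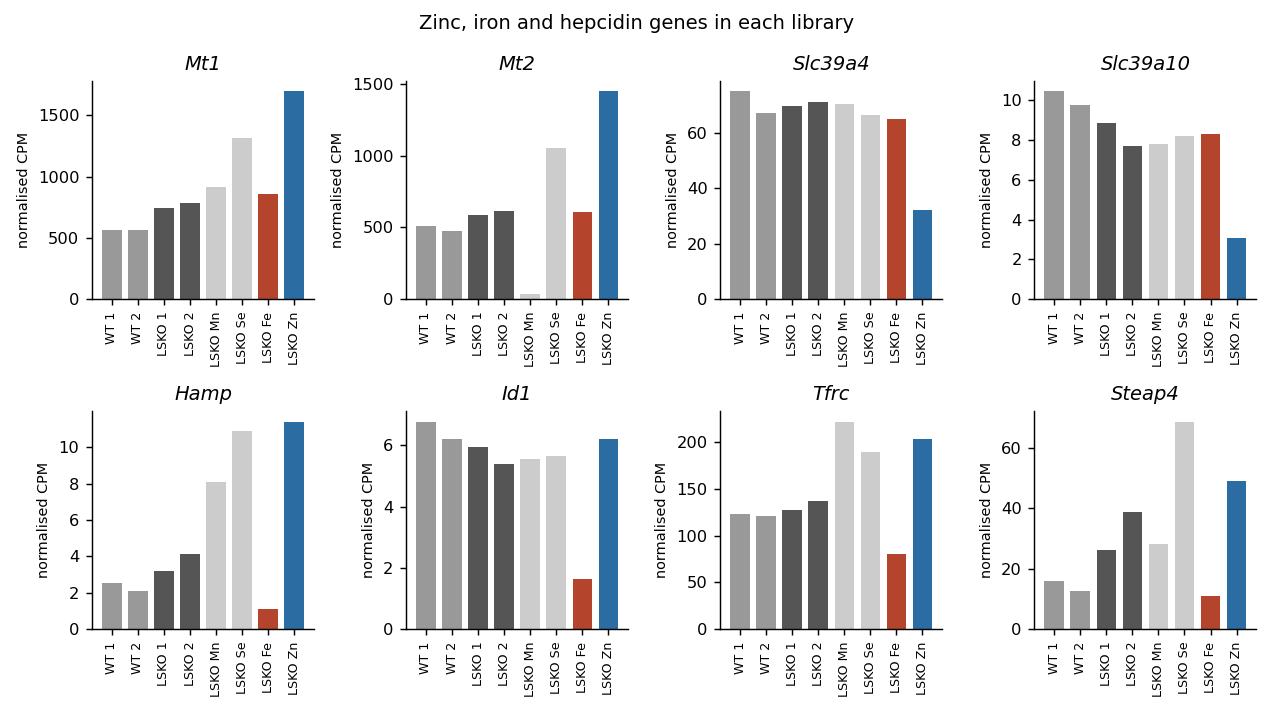
Bars give the normalised CPM (y axis, from 0) of 8 genes in each of the 8 libraries (x axis); light grey bars are the WT pair, the manganese and the selenite libraries, dark grey bars untreated LSKO, red iron and blue zinc. Zinc is the highest library for Mt1 and Mt2 and the lowest for Slc39a4 and Slc39a10. Iron is the lowest library for Hamp, Id1, Tfrc and Steap4. Mt2 has 35.8 CPM with manganese, in a library that stood apart with 4.48% of reads in no gene. Of the Mt2 exons, 432 bases overlap a gene on the other strand.

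Of 29 tested genes of iron uptake, storage, export and sensing, 6 were lower with iron and none higher. Tfrc, the transferrin receptor, is the best known target of the iron regulatory proteins. It had 123 and 121 CPM in WT, 127 and 137 CPM in untreated LSKO, 80.1 CPM with iron and 203 CPM with zinc. Iron gave the lowest value of the 8 libraries, while zinc lay above every untreated library and near manganese (222 CPM) and selenite (190 CPM). The log2 fold change was -1.34 ± 0.11 (SE, edgeR adjusted p = 0.000322), and it changed by log2 -0.73 with iron and 0.62 with zinc against untreated LSKO. Steap4, a metalloreductase that reduces iron and copper and that is also induced in inflammation, had 26.3 and 38.7 CPM in untreated LSKO, 11.01 CPM with iron and 49.1 CPM with zinc. Its log2 fold change was -2.16 ± 0.26 (edgeR adjusted p = 0.00200). Steap2, of the same family, had 21.6 CPM with iron and 37.5 CPM with zinc.

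The other 3 genes in this group encode secreted proteins of the acute phase. Hp (haptoglobin, which binds free haemoglobin) had 1546 and 1820 CPM in untreated LSKO, 1221 CPM with iron and 2670 CPM with zinc, a log2 fold change of -1.13 ± 0.13 (SE, edgeR adjusted p = 0.00163). Cp (ceruloplasmin, the copper-carrying ferroxidase of plasma) had 2406 CPM with iron and 3976 CPM with zinc, and Lcn2 (lipocalin 2, which binds bacterial iron carriers) 1546 and 2392 CPM. Tfrc, Steap4, Hp and Cp kept their calls in the LSKO-pair setting, and Steap2 and Lcn2 did not. The genes of iron storage and export were not called. Fth1 (ferritin heavy chain) had 3664 CPM with iron and 3335 CPM with zinc, Ftl1 (ferritin light chain) 3971 and 3851 CPM, and Slc40a1 (ferroportin) 165 and 139 CPM. Copper handling had 3 of 11 tested genes lower with iron, Cp among them, with Slc31a2 (a copper transporter of the CTR family) at 16.4 CPM against 32.0 CPM and Atox1 (a copper chaperone) at 101 CPM against 146 CPM. Iron-sulfur cluster assembly had 2 of 26 lower, Cisd2 and Bola3, a count of 0 in the LSKO-pair setting. This share, 7.69%, compares with 5.46% of all genes.

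Hamp (chromosome 7, 30942368 to 30944032) was among the largest differences in the comparison. It had 2.57 and 2.09 CPM in WT, 3.22 and 4.16 CPM in untreated LSKO, 1.10 CPM with iron and 11.4 CPM with zinc, from 22 reads with iron and 280 with zinc. Manganese and selenite gave 8.09 and 10.9 CPM, so that iron was the lowest and zinc the highest of the 8 libraries. The log2 fold change of Hamp between iron and zinc was -3.37 ± 0.34 (SE, edgeR adjusted p = 0.000752), with -1.75 for iron and 1.62 for zinc against untreated LSKO. Id1, Id2 and Id3, inhibitors of DNA binding whose genes are classic targets of BMP and SMAD signalling, were lower with iron as well. Id1 had 5.95 and 5.37 CPM in untreated LSKO, 1.65 CPM with iron (33 reads) and 6.20 CPM with zinc (152 reads), a log2 fold change of -1.91 ± 0.30 (edgeR adjusted p = 0.00585). Id2 had 37.3 and 44.6 CPM in untreated LSKO, 11.1 CPM with iron and 40.9 CPM with zinc. Id3 had 25.5 and 24.2 CPM in untreated LSKO, 12.3 CPM with iron and 30.1 CPM with zinc. In all 3 Id genes the zinc library lay near the untreated pair and the iron library below it.

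Of the 24 tested genes of hepcidin and BMP-SMAD signalling, these 4 were called lower and 2 higher, and the list's median was 0.05. The 4 lower calls stood in the LSKO-pair setting, with DESeq2 and after the length and GC correction. The 2 higher genes did not keep their calls in the LSKO-pair setting. Smad7, an inhibitory SMAD that is itself a target of the pathway, had 11.4 and 9.75 CPM in untreated LSKO, 10.5 CPM with iron and 5.22 CPM with zinc. Selenite gave 4.54 CPM, and both it and zinc lay below the untreated libraries. Fst (follistatin, which binds activins) had 71.1 CPM with iron and 42.7 CPM with zinc. Bmp6, the ligand through which iron is known to act on hepcidin and which is made mostly by endothelial cells, had 7.78 and 7.62 CPM, with no call.

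Genes of the response to oxidants split by list. Called members of the NRF2 list lay higher with iron. Called members of the lists of glutathione transferases and of peroxidases, dismutases and catalase lay lower. Hmox1 (haem oxygenase 1, which breaks down haem and releases its iron) had 286 and 220 CPM in untreated LSKO, 622 CPM with iron and 331 CPM with zinc, the iron library being the highest of all 8. Its log2 fold change was 0.91 ± 0.16 (SE, edgeR adjusted p = 0.00753), with an adjusted p of 0.066 in the LSKO-pair setting. Of 25 tested members of the NRF2 list, 3 were higher with iron and none lower, namely Hmox1, Txnrd1 (thioredoxin reductase 1, 749 against 496 CPM) and Gclm (a subunit of the enzyme that starts glutathione synthesis, 194 against 132 CPM). In the LSKO-pair setting none of the 3 was called.

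All 22 tested glutathione transferases had fitted values below 0, and 8 were called lower with iron, with a list median of -0.43. Gsta2 had 20.5 and 29.1 CPM in untreated LSKO, 50.9 CPM with iron and 104 CPM with zinc, and Gsta4 had 34.7 and 34.4 CPM in untreated LSKO, 48.6 CPM with iron and 92.5 CPM with zinc. Both metals thus lay above untreated LSKO for these alpha-class genes, and zinc lay above iron. Gstt1 had 30.9 CPM with iron and 59.9 CPM with zinc. Glutathione transferases include close copies that share reads, so single members are uncertain, and 2 were called in the LSKO-pair setting. Among 16 peroxidases, dismutases and catalase, 4 were lower with iron: Prdx3 (156 against 246 CPM), Gpx1 (986 against 1443 CPM), Prdx1 (1419 against 2027 CPM) and Sod2 (84.0 against 119 CPM). None of the 4 was called after the length and GC correction or in the LSKO-pair setting. Of 12 genes of lipid peroxidation and ferroptosis, neither edgeR nor DESeq2 called any, and by edgeR 2 lay higher and 3 lower with iron at an unadjusted p below 0.05.

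Inflammatory genes were lower with iron across several families. Ccl2, the chemokine that draws monocytes (chromosome 11, 82035571 to 82037453), had 239 and 248 CPM in WT, 191 and 150 CPM in untreated LSKO, 76.9 CPM with iron and 503 CPM with zinc. Selenite gave 519 CPM and manganese 262 CPM, so that iron was the lowest library, and zinc lay above all untreated ones. The log2 fold change of Ccl2 was -2.71 ± 0.16 (SE, edgeR adjusted p = 4.01e-05), with -1.15 for iron and 1.56 for zinc against untreated LSKO. Of 21 tested chemokines and receptors, 5 were lower with iron and none higher, with a list median of -0.70, or -0.63 with Cxcl14, which had no read with iron, set at the limit that a count of 0 allows. The others called were Ccl7 (16 reads with iron and 140 with zinc), Ccl20 (6 and 87 reads), Ccl6 (29 and 104 reads) and Cxcl1 (37.6 and 93.7 CPM), which draw monocytes, lymphocytes or neutrophils. In the LSKO-pair setting and after the length and GC correction 3 members were called, Ccl2 and Ccl7 among them both times, and with DESeq2, which gave Ccl7 and Ccl20 no adjusted p, 2.

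In the list of NF-kB and cytokine targets, 10 of 26 tested genes were lower with iron and none higher, with a median of -0.55. Besides Ccl2 and Cxcl1 these included Vcam1 (an adhesion molecule, 10.2 CPM with iron and 29.6 CPM with zinc), Ikbke (a kinase of the interferon and NF-kB pathways, 28.6 and 84.5 CPM), Il1a (interleukin 1 alpha, 15 and 80 reads) and Sod2. Nfkb1, Nfkb2, Rel and Relb, which encode subunits of NF-kB, were not called, nor was Rela. The list had 3 lower calls in the LSKO-pair setting and 13 after the length and GC correction. Of 25 acute phase genes, 7 were lower with iron, among them Fgb (fibrinogen beta chain), with 800 and 1205 CPM in untreated LSKO, 620 CPM with iron and 1532 CPM with zinc, and Il1rn (the antagonist of the interleukin 1 receptor), with 9.52 CPM with iron and 23.1 CPM with zinc. The serum amyloids Saa1 and Saa2, at 477 against 635 CPM and 283 against 362 CPM, were not called. The list had 3 calls in the LSKO-pair setting. For Hp, Cp, Steap4 and Fgb, iron lay below both untreated LSKO libraries and zinc above both. Lcn2 with iron, at 1546 CPM, lay between the untreated LSKO libraries (1228 and 1598 CPM). Against untreated LSKO, the median of the whole acute phase list was 0.03 for iron and 0.45 for zinc.

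Interferon response genes moved together, with 36 of 37 tested members below 0 between iron and zinc, a median of -0.74, and 17 called lower and none higher. The share called, 45.9%, compares with 5.46% of all genes. Isg15, the ubiquitin-like modifier induced by interferon, had 25.2 and 23.9 CPM in WT, 114 and 218 CPM in untreated LSKO, 93.2 CPM with iron and 261 CPM with zinc. The untreated LSKO libraries also differed from each other, replicate 1 lying nearer to iron and replicate 2 nearer to zinc, and all LSKO libraries lay above WT. The log2 fold change of Isg15 was -1.49 ± 0.31 (SE, edgeR adjusted p = 0.0169), with an adjusted p of 0.097 in the LSKO-pair setting. Ifi44 (22.2 against 66.7 CPM), Oasl2 (9.57 against 38.1 CPM), Oas3 (69 against 372 reads) and, outside the list, the GTPase Tgtp1 (12.3 against 50.4 CPM) had iron, untreated LSKO replicate 1, untreated LSKO replicate 2 and zinc in the same order. No member was called in the LSKO-pair setting, and 6 were with DESeq2. The interferon-stimulated response element core of the Isg15 promoter printed above occurred in 16 of 31 list members with a promoter window (51.6%) and in 10 of the 16 called lower (62.5%), against 3.65% of tested genes. The list was chosen as interferon response genes, so its share is not a result of the comparison of iron with zinc. The difference between the list and its called members was not tested.

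Called markers of the other liver cells were mostly lower with iron, while the list of bile duct markers had a median of 0.02. Among Kupffer cell and macrophage markers, 5 of 18 tested were lower with iron and 1, Cd14, higher, with a median of -0.86. Mpeg1 (perforin-2 of macrophages) had 45.2 and 51.6 CPM in untreated LSKO, 27.6 CPM with iron and 79.0 CPM with zinc, a log2 fold change of -1.52 ± 0.14 (SE, edgeR adjusted p = 0.000417). Lyz2 (lysozyme) had 7.82 CPM with iron and 20.9 CPM with zinc, Adgre1 (the F4/80 antigen) 3.44 and 9.33 CPM, and C1qa (complement C1q) 5.48 and 13.9 CPM. Others did not follow, with Cd68 at 263 CPM with iron and 199 CPM with zinc and Csf1r at 14.1 and 13.5 CPM, and Cd14 and Cd68 make up most of the summed level of the list, 578 CPM with iron and 572 CPM with zinc against 432 to 576 CPM in the untreated libraries. In untreated LSKO, Lyz2 had 13.6 and 11.7 CPM, between the metals, and Adgre1 had 3.57 and 3.79 CPM, near the iron library. C1qa had 14.7 and 18.9 CPM there, above both metals. The median of the list against untreated LSKO was -1.01 for iron and -0.14 for zinc. In bulk samples, fewer cells of a type and less RNA per cell cannot be told apart.

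Sinusoidal endothelial markers had 4 of 20 lower and a median of -0.47, with a summed level of 156 CPM with iron and 206 CPM with zinc, below 254 to 440 CPM in the untreated libraries. Kdr (the main VEGF receptor) had 18.9 and 17.5 CPM in WT, 14.4 and 8.02 CPM in untreated LSKO, 1.69 CPM with iron and 5.75 CPM with zinc, and the pan-endothelial Cdh5 had 27.4 and 24.7 CPM with no call. Stellate cell and fibroblast markers had 3 of 15 lower and a median of -0.70, with a summed level of 44.1 CPM with iron and 80.3 CPM with zinc, against 91.2 to 98.9 CPM in the untreated libraries. Acta2 (smooth muscle actin, made by activated stellate cells) had 8 reads with iron and 90 with zinc, Tagln (transgelin) 134 and 432 reads and Dcn (decorin) 222 and 529 reads. Hepatocyte markers, with Alb at 27350 CPM with iron and 31650 CPM with zinc, summed to 31490 and 37550 CPM and had 1 of 14 higher (Tat) and 1 lower (Fgb). Lymphocyte and neutrophil markers summed to 0.698 CPM with iron and 2.32 CPM with zinc, with Cd3e and Ly6g at 0 in both. S100a8, made by neutrophils and inflammatory macrophages, had no read with iron and 31 with zinc, at least 8.45-fold higher with zinc when set against 3 reads in the iron library. Bile duct markers summed to 325 and 282 CPM. Erythroid markers summed to 1.84 and 3.47 CPM, with the globin genes Hba-a1 and Hba-a2 at 0 in both. In the LSKO-pair setting 3 macrophage markers and 1 stellate cell marker were called, all lower with iron. None of the endothelial, hepatocyte, bile duct, lymphocyte and neutrophil or erythroid markers was called there. The part of these cell types in the immune and BMP differences was not tested.

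**Figure D4:**
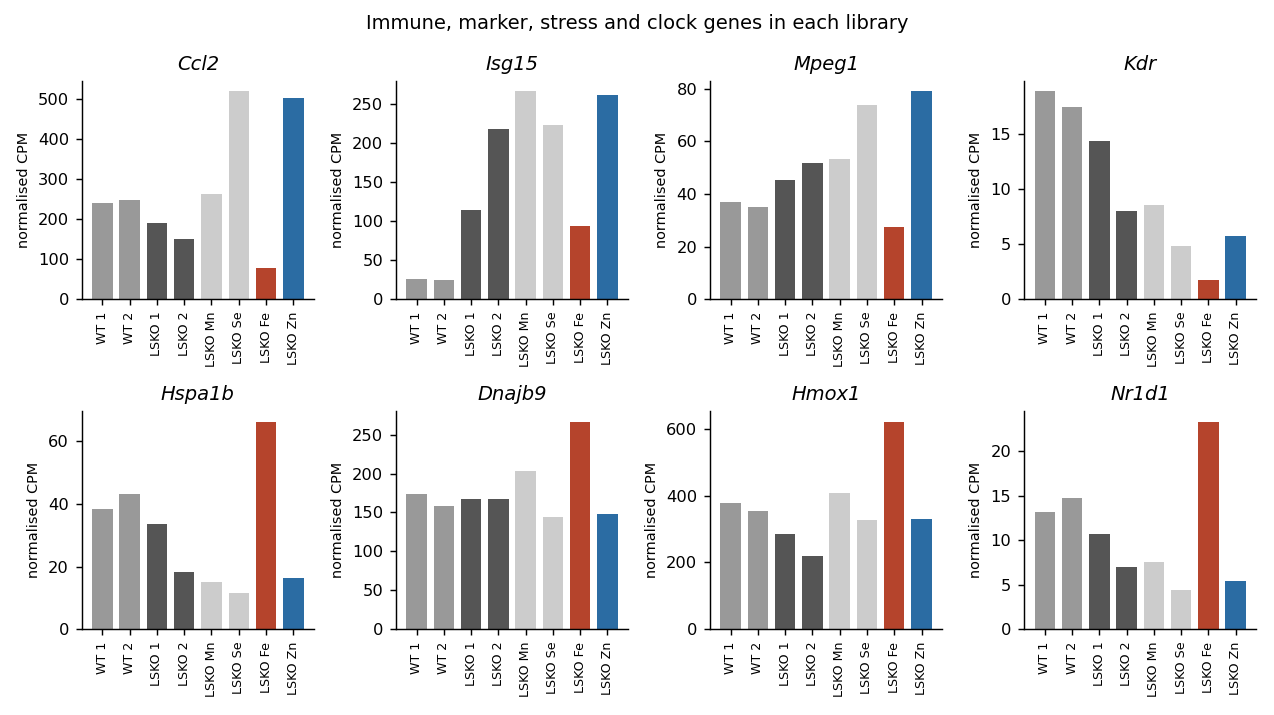
Bars give the normalised CPM (y axis, from 0) of 8 genes in each of the 8 libraries (x axis), coloured as for the metal genes (red iron, blue zinc, dark grey untreated LSKO, light grey the rest). Iron is the lowest library for Ccl2, Mpeg1 and Kdr and the highest for Hspa1b, Dnajb9, Hmox1 and Nr1d1; for Isg15 it lies below untreated LSKO replicate 1 (114 CPM) and above WT.

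Stress genes of the endoplasmic reticulum were higher with iron. Of 25 tested genes of the unfolded protein response, 24 lay above 0 and 8 were called higher (32% against 3.7% of all genes), with a median of 0.42. Dnajb9, a chaperone of the reticulum and a target of XBP1, had 173 and 159 CPM in WT, 167 and 167 CPM in untreated LSKO, 267 CPM with iron and 149 CPM with zinc. Iron was the highest of the 8 libraries, and zinc lay just below the untreated ones. Its log2 fold change was 0.85 ± 0.11 (SE, edgeR adjusted p = 0.00250). Hyou1, another chaperone, had 147 and 152 CPM in untreated LSKO, 231 CPM with iron and 127 CPM with zinc. Dnajb9 and Hyou1 were the 2 calls of the LSKO-pair setting. Ppp1r15a (GADD34, which restores translation after stress) had 169 CPM with iron and 81.2 CPM with zinc, and Sdf2l1 70.8 and 42.8 CPM.

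The ATF4 response to lack of amino acids had 7 of 30 tested genes higher with iron and none lower, with a median of 0.28. Nupr1 (a stress-induced chromatin protein, 76.2 against 39.8 CPM), Trib3 (a pseudokinase that damps ATF4, 232 against 128 CPM) and Atf3 (296 against 180 CPM) were among them. None was called in the LSKO-pair setting. The untreated LSKO libraries had 150 and 119 CPM of Trib3. Among 23 heat shock genes, 3 were higher and 1 lower. Hspa1b, an inducible HSP70, had 38.3 and 43.0 CPM in WT, 33.6 and 18.3 CPM in untreated LSKO, 66.3 CPM with iron and 16.5 CPM with zinc. Its near-identical neighbour Hspa1a, with 39.6 against 6.60 CPM, shares reads with it, so how the difference divides between the 2 is uncertain. Their log2 fold changes were 2.01 ± 0.31 (edgeR adjusted p = 0.00510) and 2.58 ± 0.40 (edgeR adjusted p = 0.00494), with adjusted p of 0.063 and 0.058 in the LSKO-pair setting. Bag3, a partner of HSP70, had 62.6 CPM with iron and 40.1 CPM with zinc, while Serpinh1, the collagen chaperone HSP47, had 72 reads with iron and 181 with zinc.

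Of 27 tested immediate early genes, 8 were higher with iron and none lower, with a median of 0.39 and 2 called in the LSKO-pair setting. Jun had 140 and 134 CPM in untreated LSKO, 201 CPM with iron and 111 CPM with zinc. Fosb had 50 reads with iron and 2 with zinc, a ratio of 30.6 after normalisation (95% exact counting interval 8.03 to 259). Of 24 p53 targets 4 were higher and 1 lower. Cdkn1a (the cell cycle inhibitor p21) had 527 CPM with iron and 330 CPM with zinc, and Fas (the death receptor) 8.52 and 18.5 CPM. Among 36 cell cycle genes 5 were lower and 2 higher with iron. Mki67 had 12 reads with iron and 117 with zinc, Top2a 20 and 126 reads, and Birc5 2 and 38 reads, a ratio of 15.5 in favour of zinc (interval 4.02 to 133). Ccnd1 (cyclin D1) had 19.7 and 20.2 CPM in untreated LSKO, 5.88 CPM with iron and 23.7 CPM with zinc, and was the 1 member called in the LSKO-pair setting. Mki67, Top2a and Birc5 rest on few reads, and proliferation markers belong to any dividing cell in the culture.

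**Figure D5:**
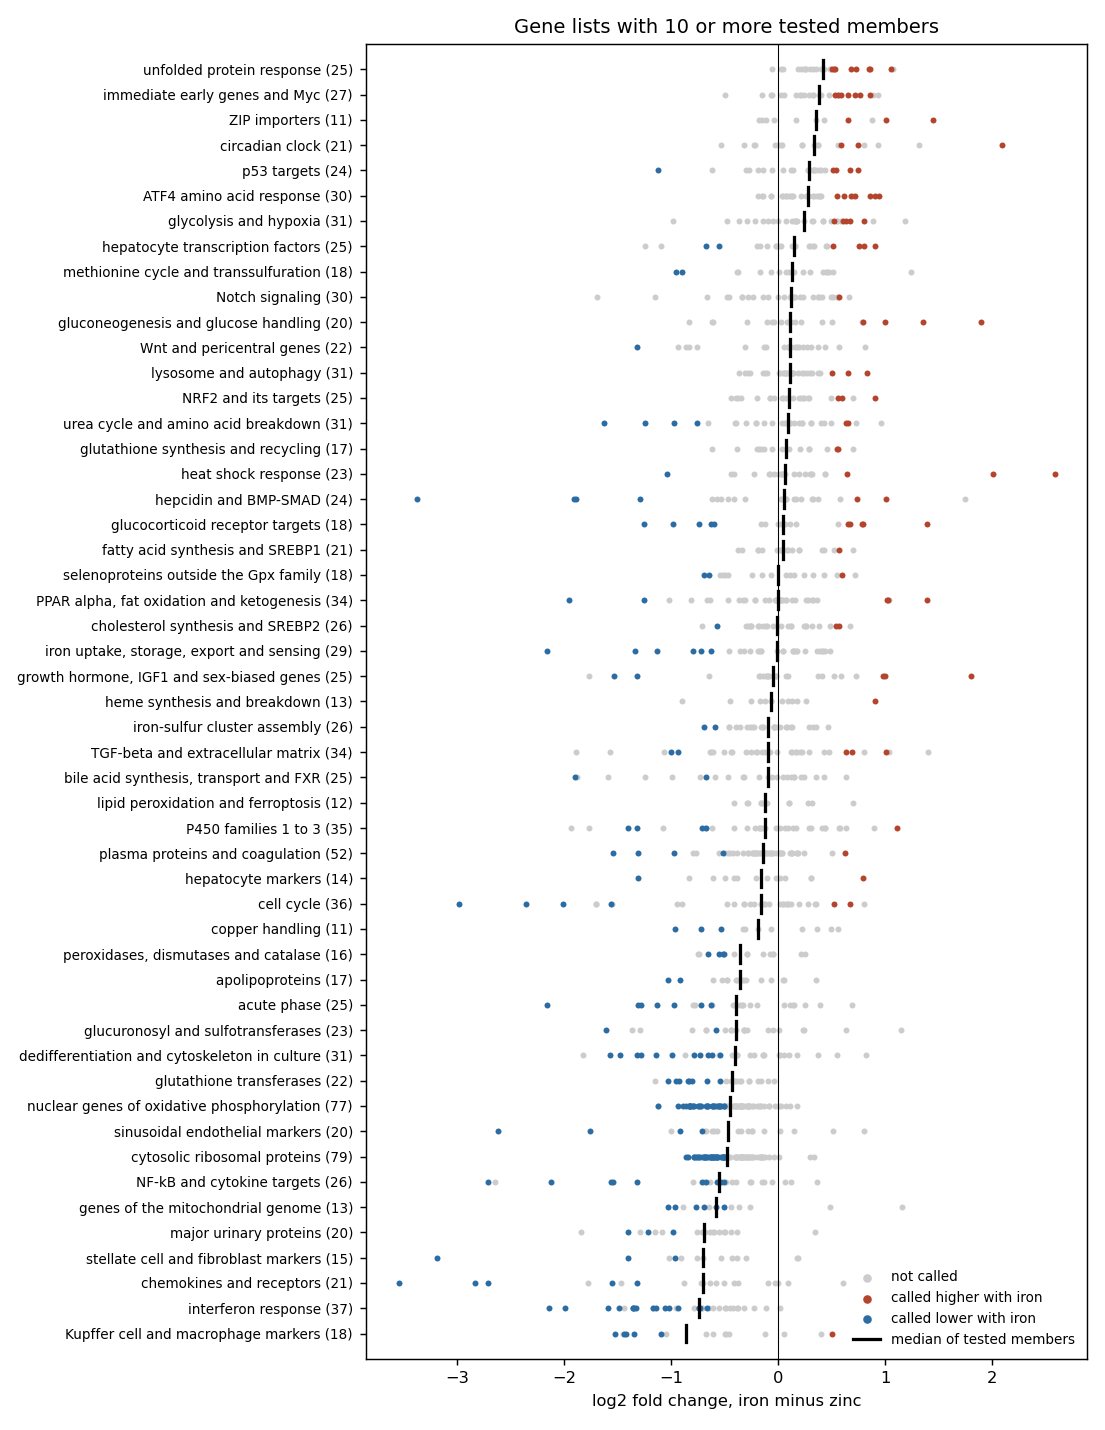
Each row is a gene list with 10 or more tested members (number in brackets), each point a member with over 3 reads in both libraries, placed on the x axis by its log2 fold change, iron minus zinc, and each black bar the median of all tested members. Medians run from -0.86 for macrophage markers to 0.42 for the unfolded protein response.

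Ribosomal proteins and the respiratory chain, both large families of mostly short transcripts, lay lower with iron. Of 79 cytosolic ribosomal protein genes, 35 were lower and none higher, with a median of -0.48, and of 77 nuclear genes of oxidative phosphorylation 32 were lower and none higher, with a median of -0.45. Rpl38 had 195 and 199 CPM in untreated LSKO, 128 CPM with iron and 231 CPM with zinc. Atp5k, a small subunit of the ATP synthase, had 31.0 and 29.4 CPM in untreated LSKO, 17.2 CPM with iron and 37.5 CPM with zinc. After the length and GC correction the lower calls fell to 14 in each family, with 14 and 15 in the LSKO-pair setting. The mitochondrial genome had 6 of 13 genes lower and a median of -0.58, and its share of reads in genes was 2.70% with iron and 3.62% with zinc, against 3.41% to 4.46% in the untreated libraries. mt-Nd5 had 4493 and 3595 CPM in untreated LSKO, 2354 CPM with iron and 4009 CPM with zinc. After the correction none of the 13 was lower and 1 was higher, with a median of -0.15, and none was called in the LSKO-pair setting.

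Some genes of glucose use and production were higher with iron. Pdk4, the kinase that shuts pyruvate dehydrogenase, had 26.8 and 27.6 CPM in WT, 25.8 and 25.1 CPM in untreated LSKO, 43.3 CPM with iron and 16.6 CPM with zinc. The 4 untreated libraries lay between the metals. Its log2 fold change was 1.39 ± 0.14 (SE, edgeR adjusted p = 0.000752), and it was called under every setting run. Of 20 genes of gluconeogenesis and glucose handling, with a median of 0.11, 4 were higher and none lower, namely Irs2 (the insulin receptor substrate of liver, 44.8 against 17.6 CPM), Igfbp1 (which binds IGF1 and is repressed by insulin, 815 against 407 CPM), G6pc (glucose-6-phosphatase, 61 against 20 reads) and Tat (tyrosine aminotransferase, 144 against 82.9 CPM). Pck1, which encodes the key enzyme of gluconeogenesis, had 5.83 CPM with iron and 10.4 CPM with zinc, with no call. Irs2 alone was called in the LSKO-pair setting. Of 31 glycolysis and hypoxia genes 5 were higher and none lower, with a median of 0.24, and after the length and GC correction 3 were higher and 1 lower. Ndrg1, a hypoxia gene also known to answer to iron loss, had 230 and 206 CPM in untreated LSKO, 379 CPM with iron and 218 CPM with zinc, and Vegfa had 105 and 66.1 CPM.

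Among PPAR alpha genes, 3 of 34 were higher, Pdk4 and Creb3l3 among them, and 2 lower, Cyp4a14 (an omega-hydroxylase of fatty acids, 44 against 209 reads) and Vnn1 (pantetheinase, 16.8 against 40.2 CPM). These shares, 8.82% and 5.88%, compare with 3.7% and 5.46% of all genes. Of 31 genes of the urea cycle and amino acid breakdown 2 were higher, Nags (which makes the activator of the urea cycle, 44.3 against 28.2 CPM) and Gpt (alanine aminotransferase, 81.6 against 52.5 CPM), and 4 lower, with Kynu (kynureninase) at 41.4 and 44.2 CPM in untreated LSKO, 19.6 CPM with iron and 60.5 CPM with zinc and Otc (ornithine transcarbamylase) at 86 against 250 reads. Glucocorticoid receptor targets, in cultures that all held dexamethasone, had 5 of 18 higher, Tat and Pdk4 among them, and 5 lower, Mt1 and Mt2 among them. Cholesterol synthesis had 2 of 26 higher and 1 lower, and fatty acid synthesis 1 of 21 higher, none of which was called with DESeq2. The shares were 7.69% higher and 3.85% lower for cholesterol synthesis and 4.76% higher for fatty acid synthesis.

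Of 35 tested P450 genes, 2 were higher and 4 lower with iron. Cyp1a1, the classic target of the aryl hydrocarbon receptor, had 44 reads with iron and 2 with zinc, a ratio of 26.9 (95% exact counting interval 7.02 to 229), while Ahr itself was not called. Cyp2a5 had 93.9 and 123 CPM in untreated LSKO, 299 CPM with iron and 138 CPM with zinc, with a near copy, Cyp2a4, at 55 reads against 168, so both are uncertain. Cyp2c68 had 9.32 against 24.7 CPM. Sult1a1, a phenol sulfotransferase, had 17.8 CPM with iron and 54.5 CPM with zinc. Major urinary proteins, carriers of pheromones made by the liver, had 19 of 20 tested members below 0, 3 called lower, and a median of -0.69, which was -0.30 after the length and GC correction. Mup10 had 25.6 and 28.1 CPM in WT, 1.98 and 2.32 CPM in untreated LSKO, 1.36 CPM with manganese, 39.2 CPM with iron, 36.7 CPM with selenite and 103 CPM with zinc. Mup13 had the same split, with 2.34 and 2.76 CPM in untreated LSKO, 2.29 CPM with manganese, 49.1 CPM with iron, 113 CPM with selenite and 96.9 CPM with zinc. The libraries low in both are those with the larger share of reads not aligned. The Mup genes are near-identical copies, so values of single members are uncertain.

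Genes of the circadian clock gave 3 of 21 higher and none lower, with a median of 0.34. Nr1d1 (REV-ERB alpha, a repressor that binds haem) had 13.2 and 14.8 CPM in WT, 10.8 and 6.95 CPM in untreated LSKO, 23.3 CPM with iron and 5.46 CPM with zinc. The iron library was the highest of the 8, and the log2 fold change was 2.09 ± 0.28 (SE, edgeR adjusted p = 0.00315). Nfil3 (109 against 65.1 CPM) and Bhlhe40 (148 against 98.6 CPM), both repressors, were also called, whereas Arntl and Clock, which drive the cycle, were at 18.5 against 18.1 CPM and 89.0 against 89.2 CPM. Nr1d1 alone was called in the LSKO-pair setting. The hour of harvest is not given in the sources used here. Hepatocyte transcription factors had 4 of 25 higher, Cebpb (105 against 55.9 CPM) and Cebpa (152 against 89.96 CPM) among them, and 2 lower, among them Nr1h4 (the bile acid receptor FXR, 22.1 against 35.3 CPM).

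Of 31 tested genes of the cytoskeleton and of dedifferentiation in culture, 11 were lower with iron and none higher, with a median of -0.40. Macrophage and stellate cell markers, with medians of -0.86 and -0.70, moved the same way, and their part in this group was not tested. Tmsb4x (thymosin beta 4, which holds actin monomers) had 164 and 180 CPM in untreated LSKO, 66.3 CPM with iron and 185 CPM with zinc, and Cd44 had 41.3 and 32.1 CPM in untreated LSKO, 18.2 CPM with iron and 45.3 CPM with zinc. Zinc lay somewhat above both untreated LSKO libraries and iron below both. The list had 5 calls in the LSKO-pair setting. S100a6 had 39.3 against 95.3 CPM and Spp1 (osteopontin, also on the bile duct list) 9.62 against 28.6 CPM. TGF-beta and matrix genes had 3 of 34 higher and 2 lower. These shares, 8.82% and 5.88%, compare with 3.7% and 5.46% of all genes. Notch signalling, with 1 of 30 genes higher (Furin), and Wnt and pericentral genes, with 1 of 22 lower (Tcf7l2), held few calls. The Notch share, 3.33%, compares with 3.7% of all genes higher, and the Wnt share, 4.5%, with 5.46% lower.

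Outside these families, and among genes with a mean of at least 100 normalised reads and no overlap on the other strand, the largest lower value was that of Zfp970, a zinc finger gene, with 38.5 and 39.2 CPM in untreated LSKO, 7.62 CPM with iron and 47.9 CPM with zinc. Its log2 fold change was -2.65 ± 0.15 (SE, edgeR adjusted p = 4.01e-05), and it was called under every setting run. Ubd (the ubiquitin-like FAT10) had 10.4 and 13.5 CPM in untreated LSKO, 6.08 CPM with iron and 31.3 CPM with zinc. Plat (tissue plasminogen activator) had 21.6 and 25.8 CPM in untreated LSKO, 5.93 CPM with iron and 23.6 CPM with zinc, and Myl9 (a myosin light chain), Rxrg (a retinoid receptor) and Itga2 (an integrin) were lower with log2 fold changes of -2.30, -2.15 and -2.06. On the other side, Atp13a4 (a P-type ATPase) had 4.14 and 3.60 CPM in untreated LSKO, 7.28 CPM with iron and 1.59 CPM with zinc, the highest and the lowest of the 8 libraries. Adcy1 (an adenylyl cyclase) had 4.48 and 5.89 CPM in WT, 12.2 and 16.7 CPM in untreated LSKO, 18.5 CPM with iron and 4.85 CPM with zinc, so that zinc lay at the WT level and iron above both untreated LSKO libraries. Nat8f4 had 36.6 and 37.2 CPM in untreated LSKO, 63.1 CPM with iron and 24.4 CPM with zinc. Areg (the EGF receptor ligand amphiregulin) had 9.34 and 4.78 CPM in untreated LSKO, 21.7 CPM with iron and 8.07 CPM with zinc. Col11a2, Nrip3, Inafm1, Wnt9a and Sh2b2 were higher as well, with log2 fold changes from 1.25 to 1.48. Exons on the other strand overlap Slc30a1, Cp, Fst, Gclm, Vcam1, Ikbke, Il1a, Tagln, Hspa1a, Dnajb9, Ppp1r15a, Jun, Cdkn1a, Ccnd1, mt-Nd5, Irs2, Ndrg1, Nags, Cyp2a4, Sult1a1, Nr1d1, Bhlhe40, Furin, Cebpa and Cebpb, as they do Mt2, so reads of their partners may be in their values.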

How the data were processed

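The authors deposited raw counts per gene, with no normalization, for each of the 8 libraries. Per the labels' processing notes, reads were trimmed with Trimmomatic, aligned with HISAT2 to GRCm38 and counted with HTSeq. No source used here gives the strand setting or annotation release, so reads of a gene and of an overlapping gene on the other strand cannot be told apart. Identifiers were matched to GENCODE M21. HTSeq's summary rows (reads in no gene, ambiguous, of low quality, not aligned or not unique) were left out of every total and test, and reads in genes were 39.3% to 72.2% of each library.

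Genes with at least 80 counts over the 8 libraries were tested (15468, of which 12442 protein-coding). Counts were scaled by TMM factors, and normalised CPM are relative to the scaled library. edgeR 4.0.16 (R 4.3.3) fitted 1 model of all 6 groups for its quasi-likelihood F-test, with 2 residual degrees of freedom, 8.53 added by moderation, and a common biological coefficient of variation of 8.29%. Each SE was derived from the fold change and its F statistic. P-values were adjusted by Benjamini-Hochberg over all genes tested. The fit was tested on simulated data. Intervals on ratios are exact at 95% and, like the limit of 3 reads for a count of 0, cover counting error only.

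The metals, the 56 gene lists (1487 members) and the genes named were chosen with earlier results of these data known. Named genes are the 12 largest fold changes in each direction averaging 100 or more normalized counts, with an established symbol and no exon overlapped on the other strand, every called member of the metal lists, up to 4 called members of each other list, the member of smallest p in a list with no call, and Slc39a8. Other genes given with values or named as not called are outside that rule and were picked with their values in view. Transcript length and GC content were corrected by robust regression on natural splines (MASS 7.3.60.0.1, 4 degrees of freedom each) on genes of at least 2 log2 CPM. The comparisons with untreated LSKO share its 2 libraries. DESeq2 1.42.0 and the other settings are described with their effect.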

Additional observations from a re-analysis of the deposited data

How the results depend on the processing

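Counts of genes higher and lower with iron, 460 and 679, moved by more than 1.5 times under some settings. DESeq2 called 220 and 391. Leaving out genes overlapped on the opposite strand gave 296 and 440, with 8414 genes tested in place of 12442. Genes without such overlap had 312 higher and 519 lower calls in the fit of all genes. With the spread from the LSKO pair alone the counts were 52 and 161. Beyond a log2 fold change of 1 they were 72 and 265, and at an adjusted p under 0.01, 109 and 242. The length and GC correction gave 293 higher, and 560 lower. Leaving out 1 untreated library gave 49 to 649 higher and 164 to 895 lower, the low values without a WT library. Without a WT library the untreated LSKO pair was the only source of spread. Why that pair gave fewer calls was not tested. Without a filter on low counts, with 17647 genes tested, they were 601 and 968. Median-ratio size factors gave 421 and 706.

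The deviations of same-numbered WT and LSKO libraries had r = -0.133 over 9949 genes. This correlation cannot show whether replicate numbers mark a shared animal, day or batch. With the replicate block the counts were 553 and 796, with the block and the length and GC correction 396 and 745, and with the numbers crossed, a setting chosen after seeing the data, 605 and 839. The replicate block changed no call of a named gene.

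Of 169 called genes among the 173 named, 59 kept direction and call in every setting run for them, out of 17 settings. No named gene turned its direction. Calls lost numbered 107 with the LSKO pair alone, 36 with the length and GC correction and 33 with DESeq2, which gave no adjusted p for 12 others.

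With 1 library each, iron and zinc have no replicate check of their own. Genes under about 100 reads with iron, such as Id1, Kdr, Acta2 and Ccl20, are the least precise.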
